A study of Mus musculus with 8 samples.

Results

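Nuclear and cytoplasmic polyA RNA of mouse liver were compared across 10353 of the 26520 genes of the deposited table. A gene was taken when its mean value over the 4 liver libraries was at least 1. There were 2 nuclear libraries and 2 cytoplasmic libraries. Of the other genes, 12439 were listed at 0 in all 4 liver libraries and 3728 lay above 0 but below that mean. Nuclear RNA was the material left in solution after chromatin had been removed from nuclei, so transcripts still bound to chromatin were not part of it. Cytoplasmic RNA was the supernatant left when nuclei were collected through sucrose. No treatment, age or sex is given for the animals. The strain is given as C57BL/6 and C57BL/7 for nuclear replicates 1 and 2, and as C57BL/8 and C57BL/9 for cytoplasmic replicates 1 and 2, with the number counting up along the samples. The labels do not say whether the 2 libraries of a fraction came from separate animals, so the p-values measure only the spread between these libraries, which may be technical. The series also holds 4 libraries of MIN6, a mouse insulinoma line, and asks which mRNAs are held in the nucleus.

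A spliced and polyadenylated mRNA is handed to export receptors and leaves through the nuclear pore, after which it is translated and decays in the cytoplasm. The amount found on each side therefore reflects how fast a transcript is made, processed, exported and degraded. Some long noncoding RNAs, such as Neat1, which builds the nuclear bodies called paraspeckles, act in the nucleus and stay there. Hepatocytes, the main cells of the liver, fill the cytoplasm with very stable mRNAs of secreted plasma proteins. Red blood cells have no nucleus, and their globin mRNAs can come only from cytoplasm.

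The values are FPKM, reads per kilobase of transcript scaled by the authors, and the 2 fractions were not on a common scale. Summed over the table they came to 176592 and 104923 FPKM in nuclear RNA, against 1219625 and 859210 FPKM in cytoplasmic RNA. From the steps between the lowest values, 1 read on 1 kb of transcript was worth 0.263 and 0.197 FPKM in nuclear RNA, against 2.46 and 1.80 FPKM in cytoplasmic RNA. The estimated depth was nevertheless alike, at 1385000 and 1234000 reads in nuclear RNA and 1096000 and 1036000 reads in cytoplasmic RNA, to the nearest 1000. For a transcript of 2 kb, a floor of 3 reads lay at 0.395 and 0.295 FPKM in nuclear RNA, against 3.69 and 2.70 FPKM in cytoplasmic RNA. Such floors and read numbers cover counting error only. More genes were above 0 in nuclear RNA, with 12533 and 12705, than in cytoplasmic RNA, with 10423 and 10464. The hepatocyte markers were abundant in both fractions. Alb, which encodes serum albumin, was listed at 649 and 738 FPKM in nuclear RNA, against 41591 and 32866 FPKM in cytoplasmic RNA. Of 23 pancreatic genes in the table, 4 were above 0 in some liver library and 1, the elastase Cela1, passed the filter.

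The 5 highest nuclear means belonged to very short genes, 1 small nucleolar RNA (snoRNA) gene, Snord104, and 4 microRNA genes. Of the microRNA genes, Mir7115, Mir122 and Gm26231 were at 0 in nuclear replicate 2, so their means rest on 1 library. SnoRNAs guide chemical modification of ribosomal RNA in the nucleolus and are mostly cut out of introns. The 4 snoRNA genes printed here carry the letters of box C (ATGATGA or GTGATGA, searched in the 20 bases at the 5′ end) and of box D (CTGA, the last match), both in capitals. They are Snord104 and the 3 of the 15 snoRNA genes searched that lie within the gene Gas5. These 4 are also the only ones of the 15 that hold both boxes. All 15 were above 0 in both nuclear libraries, and CTGA was accepted only within the last 20 bases. The sequences are those of GENCODE M21 on GRCm38.
Snord104: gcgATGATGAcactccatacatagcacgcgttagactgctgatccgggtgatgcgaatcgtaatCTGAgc
Gm25789: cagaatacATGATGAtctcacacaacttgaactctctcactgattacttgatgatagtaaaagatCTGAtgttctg
Mir5117: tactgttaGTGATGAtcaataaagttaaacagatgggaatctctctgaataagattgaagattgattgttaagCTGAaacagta
Gm22357: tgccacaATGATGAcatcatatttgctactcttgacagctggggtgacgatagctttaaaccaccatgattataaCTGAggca
Snord104 lies at chr11:106500993-106501062. The other 3, at chr1:161038308-161038383 for Gm25789, chr1:161037356-161037439 for Mir5117, which M21 annotates as a snoRNA, and chr1:161036057-161036139 for Gm22357, all lie within the span of Gas5, a noncoding snoRNA host gene. Annotated exons of another gene cover 100% of the bases of these 3, and none of Snord104, so reads of an overlapping gene cannot be told apart from theirs.

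Snord104 had 10203 and 9540 FPKM in nuclear RNA and was listed at 0 in both cytoplasmic libraries. Gm25789 had 2227 and 833 FPKM in nuclear RNA, Mir5117 had 1023 and 383 FPKM, and Gm22357 had 557 and 416 FPKM, each with 0 in both cytoplasmic libraries. Their host Gas5 was unlike them, at 117 and 46.9 FPKM in nuclear RNA against 141 and 133 FPKM in cytoplasmic RNA. Of 42 snoRNA genes tested, 39 were listed at 0 in both cytoplasmic libraries. The search for the boxes took 15 snoRNA genes above 0 in both nuclear libraries, and the nuclear levels of the others are not given here. Because FPKM divides by transcript length, a few reads on a gene of under 100 bases give a very high value, and such genes were left out of the ranking by ratio.

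MicroRNA genes were listed in the same way. Their precursor transcripts are cut in the nucleus, and the mature form has no polyA tail. Mir1982 had 7103 and 1063 FPKM in nuclear RNA, Mir29c had 1054 and 385 FPKM, and Mir324 had 349 and 261 FPKM, each with 0 in both cytoplasmic libraries. Mir122, the dominant liver microRNA, had 5692 and 0 FPKM in nuclear RNA and 0 in both cytoplasmic libraries, so its value rested on 1 library. The mature arms of the 3 genes seen in both nuclear libraries, from RefSeq on GRCm38.p6, are given with the seed (bases 2 to 8) in capitals. They identify the genes and were not themselves measured.
mmu-miR-1982-5p: uUGGGAGGguccuggggagg
mmu-miR-1982-3p: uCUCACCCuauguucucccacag
mmu-miR-29c-5p: uGACCGAUuucuccugguguuc
mmu-miR-29c-3p: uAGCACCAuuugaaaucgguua
mmu-miR-324-5p: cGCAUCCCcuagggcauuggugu
mmu-miR-324-3p: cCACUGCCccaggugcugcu
No seed is shared among the 6 arms. Annotated exons of other genes cover 100% of the bases of Mir1982, Mir29c, Mir324 and Mir122, so reads of those genes cannot be told apart from their own.

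The comparison of fractions was fitted with limma on log2(FPKM + 1), as nuclear over cytoplasmic, and the threshold for a call was 0.05 on the Benjamini-Hochberg adjusted p. The libraries were brought to a common level by the median ratio over the 8493 genes above 0 in all 4, which is called the equalised scale here. It asks which transcripts are more nuclear than the typical transcript, and it says nothing of how much RNA each fraction of a cell holds. On this scale 1429 genes were called nuclear, 13.8% of those tested, and 1200 were called cytoplasmic, 11.6%. On the deposited values, 303 genes (2.93%) were called nuclear and 5197 (50.2%) cytoplasmic, so that nuclear calls made up 54.4% of all calls on the equalised scale and 5.51% on the deposited scale. With each library rescaled to the same sum the split was 1513 nuclear and 534 cytoplasmic. The median log2 ratio of all tested genes was 0.09 on the equalised scale and −1.64 on the deposited scale, and ratios of single genes are to be read against it. Each of the 303 nuclear calls of the deposited scale was also a nuclear call on the equalised scale, and each of the 1200 cytoplasmic calls was a cytoplasmic call on both.

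Ratios of many genes were larger than the typical difference between libraries. The equalised log2 ratio was at least 1 for 2784 genes and at most −1 for 2153, and it was at least 3 for 456 and at most −3 for 216. Between the 2 nuclear libraries the median absolute log2 difference was 0.40, and between the 2 cytoplasmic libraries it was 0.49. Of the 10353 tested genes, the fractions did not overlap for 3719 higher in nuclear RNA and for 3233 higher in cytoplasmic RNA. With 2 libraries on each side, many genes separate in this way by order alone, so these counts are no test. With any of the 4 libraries left out, limma called no gene on the equalised scale, although 1351 to 2145 genes were nuclear and 1425 to 1820 cytoplasmic at an unadjusted p under 0.05, and all called genes kept their direction.

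**Figure D1:**
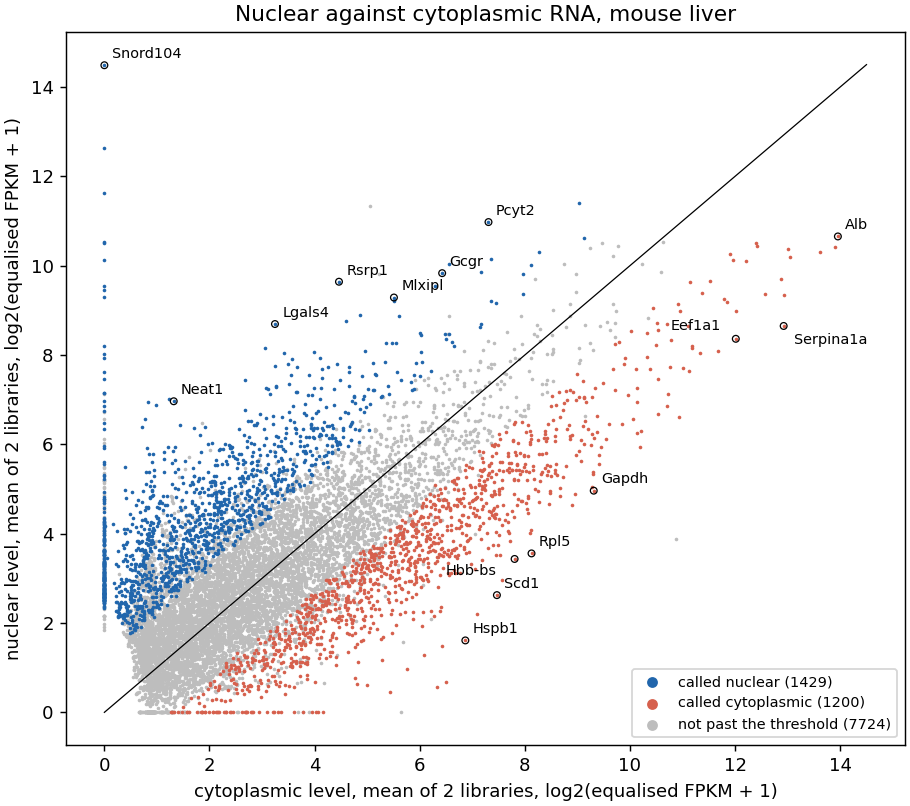
Mean nuclear level (vertical axis) against mean cytoplasmic level (horizontal axis) of the 10353 tested genes, both as log2(equalised FPKM + 1) over 2 libraries, with the line of equal levels. The 1429 genes called nuclear lie above the line and the 1200 called cytoplasmic below it, and the column of points at 0 on the left holds the 292 genes listed at 0 in both cytoplasmic libraries.

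Among mRNAs and long RNAs with a gene name (Rik and Gm symbols left out) whose higher fraction averaged 10 FPKM or more, the largest nuclear ratios belonged to genes of mixed function, some of them linked to splicing. Neat1, at chr19:5824708-5845478 of GRCm38 (mm10), had 59.1 and 48.0 FPKM in nuclear RNA, against 4.07 and 2.97 FPKM in cytoplasmic RNA, an equalised log2 ratio of 5.64 (SE 0.30, limma adjusted p = 0.0115). Rsrp1, an arginine and serine rich protein, had 417 and 282 FPKM in nuclear RNA, against 49.6 and 48.3 FPKM in cytoplasmic RNA (log2 ratio 5.18). Its fractions lay far apart, and its cytoplasmic libraries were nearly equal. Ccnl2, cyclin L2, a partner of kinases that regulate splicing, had 161 and 93.2 FPKM in nuclear RNA, against 20.0 and 14.6 FPKM in cytoplasmic RNA (log2 ratio 5.10). Lgals4, galectin-4, a sugar-binding protein best known from gut epithelium and encoded at chr7:28833854-28841708, had 233 and 135 FPKM in nuclear RNA, against 26.6 and 14.6 FPKM in cytoplasmic RNA (log2 ratio 5.45). These 4 genes were called nuclear on the deposited scale as well.

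Further members of this group were less even. Tnxb, the matrix protein tenascin-X, had 61.4 and 26.8 FPKM in nuclear RNA, against 5.39 and 0 FPKM in cytoplasmic RNA. Fam193b had 70.6 and 43.1 FPKM in nuclear RNA, against 0 and 8.93 FPKM in cytoplasmic RNA. Akap8l, a nuclear anchor of protein kinase A, had 45.3 and 30.1 FPKM in nuclear RNA, against 17.4 and 0 FPKM in cytoplasmic RNA, and was the only member of the 15 without a call on the deposited scale (limma adjusted p = 0.107). In these 3 genes the cytoplasmic replicates disagreed, with an estimated 26.8 and 0 reads for Tnxb, 0 and 23.8 for Fam193b and 30.9 and 0 for Akap8l. Cabyr, Ankrd16 and Adrb3, the beta-3 adrenergic receptor, completed the genes of this kind, with log2 ratios of 5.67, 5.11 and 5.10.

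Listed at 0 in both cytoplasmic libraries were 292 tested genes, of which 197 are protein-coding, 39 are snoRNA genes, 23 are microRNA genes and 10 are lincRNAs. To pass the filter with 0 on the cytoplasmic side, such a gene needed a nuclear mean of at least 2 FPKM, so their direction was fixed by the filter and their count says nothing of its own. The value of 1 read in cytoplasmic replicates 1 and 2 was 9.34 and 6.82 times that in nuclear replicate 1, so a 0 there allows a higher level than a 0 in a nuclear library does. The floor of 3 reads was therefore used in its place. Of these genes, 213 had transcripts of at least 300 bases and an annotated length. The filter on the mean already holds most of them above the cytoplasmic floor, so only the size of the lowest fold that the floor allows is given for single genes. The median gene of this kind had an estimated 74.3 reads over the 2 nuclear libraries.

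The 8 highest of these were Cyp21a1, Cyp2j9, Gramd1a, Sap25, Acrbp, Klhdc8b, Ramp2 and Npr1. Cyp21a1, the steroid 21-hydroxylase of the adrenal cortex, encoded at chr17:34801348-34804561, had 68.4 and 30.1 FPKM in nuclear RNA and was at least 82.5-fold higher there than the cytoplasmic floor on the equalised scale, and at least 15.9-fold on the deposited scale. Gramd1a, a carrier of cholesterol between membranes, had 28.6 and 22.8 FPKM in nuclear RNA and was at least 83.6-fold higher on the equalised scale, and at least 15.3-fold on the deposited scale. Cyp2j9, a P450 that acts on arachidonic acid, had 44.8 and 15.7 FPKM in nuclear RNA, at least 61.4-fold higher on the equalised scale. The nuclear libraries of Cyp21a1 and Cyp2j9 differed from each other by more than those of Gramd1a.

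Receptor genes were present among them. Npr1, the receptor of atrial natriuretic peptide, had 14.7 and 8.72 FPKM in nuclear RNA, at least 39.7-fold above the cytoplasmic floor on the equalised scale. Ramp2, a partner of the adrenomedullin receptor, had 12.1 and 11.5 FPKM in nuclear RNA, at least 15.1-fold above it. Acrbp, a sperm acrosome protein, had 15.9 and 15.3 FPKM in nuclear RNA, and Sap25, a subunit of a histone deacetylase complex, had 19.5 and 21.7 FPKM. Annotated exons of another gene cover 76.5% of the exon bases of Sap25, 33.4% of those of Ramp2 and 29.8% of those of Acrbp, and since the use of strand in the counting is not given, reads of the overlapping genes cannot be told apart there.

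**Figure D2:**
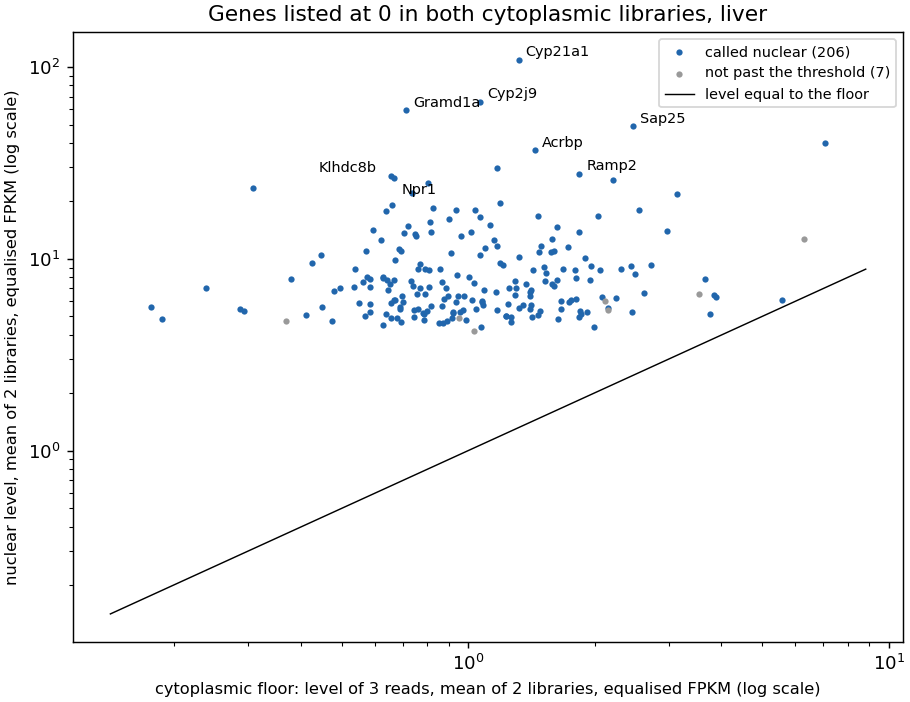
Mean nuclear level (vertical axis) against the level that 3 reads would give in cytoplasmic RNA (horizontal axis), both in equalised FPKM on log scales, for the 213 genes of at least 300 bases listed at 0 in both cytoplasmic libraries. The flat lower edge is set by the filter on the mean, which also holds most points above the line of equal values.

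Listed at 0 in both nuclear libraries were 192 tested genes, which passed the filter only through their cytoplasmic values. In 1 nuclear library alone 479 tested genes were at 0, against 1272 in 1 cytoplasmic library alone. These numbers cannot be compared between fractions, since 1 read is worth more in a cytoplasmic library.

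The largest cytoplasmic ratios belonged to mRNAs of metabolism, ribosomes, red cells and protection from stress. Hspb1, a small heat shock protein, had 1.02 and 0.763 FPKM in nuclear RNA, against 280 and 260 FPKM in cytoplasmic RNA (log2 ratio −5.26, SE 0.32, limma adjusted p = 0.0123). An estimated 3.60 reads in each nuclear library lie behind the nuclear value, so the size of the ratio is poorly fixed. Scd1, the desaturase that makes monounsaturated fatty acids, had 2.12 and 2.30 FPKM in nuclear RNA, against 503 and 334 FPKM in cytoplasmic RNA (log2 ratio −4.84). Here 38.9 and 56.5 estimated reads lie behind the nuclear values, and the fractions lay far apart. Urad, an enzyme of uric acid breakdown, had 0 and 0.316 FPKM in nuclear RNA, against 98.8 and 98.1 FPKM in cytoplasmic RNA.

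Enzymes with strong hepatocyte expression followed. Gstm1, a glutathione transferase, had 35.6 and 48.2 FPKM in nuclear RNA, against 3931 and 5220 FPKM in cytoplasmic RNA (log2 ratio −4.32). Prdx1, a peroxidase of the cytosol, had 28.3 and 23.6 FPKM in nuclear RNA, against 3304 and 2248 FPKM in cytoplasmic RNA (log2 ratio −4.26). Rgn, regucalcin, which also makes a precursor of vitamin C in mice, had 2.11 and 3.95 FPKM in nuclear RNA, against 522 and 371 FPKM in cytoplasmic RNA (log2 ratio −4.60). Gapdh, the glycolytic enzyme, had 15.3 and 11.02 FPKM in nuclear RNA, against 1549 and 1404 FPKM in cytoplasmic RNA (log2 ratio −4.35).

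Car3, carbonic anhydrase 3, was uneven between nuclear libraries, with 7.84 and 23.8 FPKM there against 1403 and 1464 FPKM in cytoplasmic RNA (log2 ratio −4.22). Nme2, a nucleoside diphosphate kinase, headed the ratios at −5.76, but with 498 and 67.5 FPKM in cytoplasmic RNA and 48.9% of its exon bases shared with another annotated gene its value is uncertain. Immp2l, a peptidase of the inner mitochondrial membrane, had 0.720 and 0.538 FPKM in nuclear RNA, against 168 and 145 FPKM in cytoplasmic RNA, and rested on an estimated 3.13 nuclear reads in each. Pgk1-rs7 is a processed copy of Pgk1, and Serpina1a, Hbb-bs, Hbb-bt, Gapdh and Rpl5 have near-identical paralogs or pseudogenes with which the authors' counting may have split reads.

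**Figure D3:**
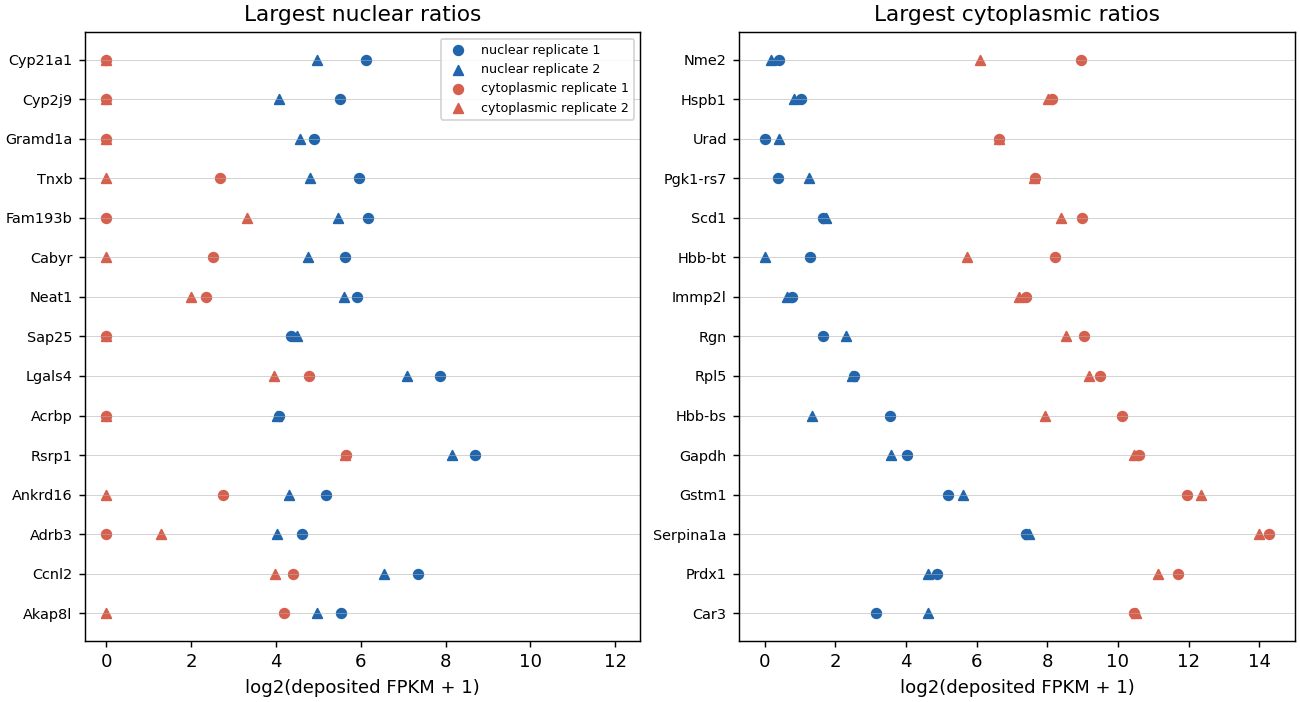
Levels in each of the 4 libraries, as log2(deposited FPKM + 1) on the horizontal axis, for the 15 largest nuclear ratios (left) and the 15 largest cytoplasmic ratios (right) among genes with a name, Rik and Gm symbols left out. Nuclear points lie to the right of cytoplasmic points in each row on the left and to the left of them in each row on the right, even though cytoplasmic values run higher in general.

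Long noncoding RNAs known to stay in the nucleus check the labels of the fractions. Of 16 listed, 4 were tested, and of these 3 were called nuclear and none cytoplasmic, with a median log2 ratio of 3.89. Malat1, a component of nuclear speckles, had 6.76 and 8.38 FPKM in nuclear RNA, against 0 and 0.477 FPKM in cytoplasmic RNA (log2 ratio 4.05, limma adjusted p = 0.0123). Meg3, the imprinted RNA of the Dlk1 domain, had 14.53 and 6.56 FPKM in nuclear RNA, against 6.03 and 0 FPKM in cytoplasmic RNA (log2 ratio 3.73). Pvt1, named after its values were seen as the remaining member, did not pass the test, with a log2 ratio of 1.13 on the equalised scale and −0.51 on the deposited scale. Over all lincRNAs, 27 of 113 tested were called nuclear and 5 cytoplasmic, against 13.8% and 11.6% of all genes. Of the 113, 10 were at 0 in both cytoplasmic libraries, so the filter fixed the direction of those 10.

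The list of coding mRNAs named in earlier work as nuclear may have been chosen on these very samples and is then no independent evidence. Its members were nuclear in 11 of 13 cases (84.6%, against 13.8% of all genes) and cytoplasmic in none. Their median log2 ratio was 3.61 on the equalised scale and 1.24 on the deposited scale, where 4 were called nuclear and 2 cytoplasmic. Mlxipl encodes ChREBP, the transcription factor that turns glucose into a signal for fat synthesis. The gene, at chr5:135089890-135138382, had 307 and 234 FPKM in nuclear RNA, against 121 and 88.6 FPKM in cytoplasmic RNA, an equalised log2 ratio of 3.78 (SE 0.30, limma adjusted p = 0.0123) and a deposited log2 ratio of 1.36 (limma adjusted p = 0.0523). Mlxipl was thus higher in nuclear RNA even in deposited values, where the typical gene was lower there.

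Nlrp6, an inflammasome sensor, had 315 and 204 FPKM in nuclear RNA, against 137 and 78.3 FPKM in cytoplasmic RNA (log2 ratio 3.70, and 1.28 on the deposited scale with limma adjusted p = 0.0882). Gcgr, the glucagon receptor, encoded at chr11:120530699-120538986, had 510 and 300.2 FPKM in nuclear RNA, against 285 and 137 FPKM in cytoplasmic RNA (log2 ratio 3.41, and 0.98 on the deposited scale with limma adjusted p = 0.205). Pcyt2, an enzyme of phosphatidylethanolamine synthesis, was the most abundant of the list, with 1127 and 664 FPKM in nuclear RNA against 467 and 288 FPKM in cytoplasmic RNA (log2 ratio 3.67). In all 3 genes the lowest nuclear library lay above the highest cytoplasmic library in deposited FPKM.

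Zfp692, a zinc finger protein, had the largest ratio of the list at 4.70. Acly, which supplies acetyl-CoA for lipid synthesis, stood against the list with 14.1 and 6.86 FPKM in nuclear RNA and 115 and 91.9 FPKM in cytoplasmic RNA (log2 ratio −0.92, limma adjusted p = 0.122). Slc7a2, a transporter of cationic amino acids, had a log2 ratio of 0.22 (limma adjusted p = 0.691), and both Acly and Slc7a2 were called cytoplasmic on the deposited scale.

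Noncoding hosts of snoRNAs, whose spliced exons are often degraded in the cytoplasm, were nuclear in 6 of 9 tested cases and cytoplasmic in none, with a median log2 ratio of 2.96. The gene 2810008D09Rik had 61.7 and 44.6 FPKM in nuclear RNA, against 0 and 4.18 FPKM in cytoplasmic RNA (log2 ratio 6.12), and Snhg7 and Dancr had log2 ratios of 3.82 and 4.13. The identifier of Snhg7 is annotated in M21 as a snoRNA of 139 bases, 91.4% of them under exons of another gene. By that length an estimated 4.13 reads lie behind each nuclear value. Dancr had 0 and 5.28 FPKM in cytoplasmic RNA and no call on the deposited scale (limma adjusted p = 0.0716). Gas5, the most abundant, did not pass the test, at 1.53 on the equalised scale and −0.88 on the deposited scale. Taking every tested gene that holds a snoRNA within its span, the 12 hosts that are not protein-coding had 6 nuclear and 0 cytoplasmic calls and a median of 2.68. The 193 protein-coding hosts had 30 nuclear and 42 cytoplasmic calls and a median of −0.25. Their nuclear share was near the 13.8% of all genes, of which 11.6% were called cytoplasmic.

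Splicing regulators were the functional group with the most nuclear calls. Of 55 tested, 38 were called nuclear (69.1%, against 13.8% of all genes) and none cytoplasmic (against 11.6%) on the equalised scale. The median log2 ratio was 2.10 against 0.09 for all genes. On the deposited scale 5 were called nuclear and 10 cytoplasmic, where the shares of all genes were 2.93% and 50.2%. The median there was −0.16 against −1.64 for all genes. The sign of the group thus depends on the scale, while its place above the typical gene does not. Clk1, a kinase that phosphorylates SR splicing factors, had 120 and 70.0 FPKM in nuclear RNA, against 14.45 and 26.4 FPKM in cytoplasmic RNA (log2 ratio 4.50). Its relative Clk4 had 85.1 and 50.3 FPKM in nuclear RNA, against 23.3 and 12.98 FPKM in cytoplasmic RNA (log2 ratio 4.18).

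Hnrnph1, an RNA-binding protein that controls splice site choice, had 129 and 70.2 FPKM in nuclear RNA, against 32.4 and 17.8 FPKM in cytoplasmic RNA (log2 ratio 4.29). Pnisr, an SR-related protein, had 27.1 and 16.5 FPKM in nuclear RNA, against 3.85 and 3.38 FPKM in cytoplasmic RNA (log2 ratio 4.30). These 4 genes were called nuclear on both scales. Ddx5, an RNA helicase and the member with the highest mean, had 157 and 145 FPKM in nuclear RNA, against 185 and 121 FPKM in cytoplasmic RNA, and was called nuclear on the equalised scale only (log2 ratio 2.43, limma adjusted p = 0.0149).

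Of 42 genes of the nuclear pore and of mRNA export, 7 were called nuclear (16.7%, near the 13.8% of all genes) and 1 cytoplasmic (2.38%, against 11.6%), with a median of 0.70 on the equalised scale and −1.24 on the deposited scale. Nxf1, the main export receptor of mRNA, had 84.7 and 53.6 FPKM in nuclear RNA, against 36.8 and 10.8 FPKM in cytoplasmic RNA (log2 ratio 4.03). Ddx39b, the helicase that loads it, had 135 and 69.5 FPKM in nuclear RNA, against 106 and 57.0 FPKM in cytoplasmic RNA (log2 ratio 2.72). The 1 cytoplasmic call, Zc3h14, a polyA-binding protein, was at 0 in both nuclear libraries against 4.45 and 3.25 FPKM in cytoplasmic RNA. The filter fixed its direction, so this call says nothing of its own.

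Chromatin regulators lay on the nuclear side with smaller ratios. Of 49 tested, 11 were called nuclear (22.4%, against 13.8% of all genes) and none cytoplasmic. The median was 1.10 on the equalised scale and −0.76 on the deposited scale. Kmt2b, a histone H3 lysine methyltransferase, had 24.3 and 9.55 FPKM in nuclear RNA, against 5.95 and 8.69 FPKM in cytoplasmic RNA (log2 ratio 3.14). Chd3, a nucleosome remodeller, had 78.5 and 39.0 FPKM in nuclear RNA, against 38.2 and 37.0 FPKM in cytoplasmic RNA (log2 ratio 2.92). Brd2, a reader of acetylated histones, passed the test at 1.29 but lay at −1.10 on the deposited scale.

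Of 29 hepatocyte transcription factors, 6 were called nuclear (20.7%, against 13.8% of all genes) and 2 cytoplasmic (6.90%, against 11.6%), with a median of 0.31 on the equalised scale and −1.93 on the deposited scale. After Mlxipl, the next was Bcl6, a repressor, with 5.63 and 8.59 FPKM in nuclear RNA against 2.19 and 4.80 FPKM in cytoplasmic RNA (log2 ratio 2.79). Cebpb followed at 1.56, or −0.78 on the deposited scale. Its relative Cebpa, which maintains the hepatocyte state, had 6.35 and 7.16 FPKM in nuclear RNA, against 191 and 137 FPKM in cytoplasmic RNA (log2 ratio −2.07, limma adjusted p = 0.0242). Hnf4a, the master regulator of hepatocytes, did not pass the test, with 37.5 and 19.6 FPKM in nuclear RNA against 353 and 199.8 FPKM in cytoplasmic RNA (log2 ratio −0.84).

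Nuclear receptors gave 4 nuclear calls (13.3%, near the 13.8% of all genes) and 1 cytoplasmic call (3.33%) among 30 tested, with a median of 0.26 on the equalised scale and −1.67 on the deposited scale. Nr1i3, the xenobiotic receptor CAR, had 98.4 and 72.0 FPKM in nuclear RNA, against 70.6 and 45.2 FPKM in cytoplasmic RNA (log2 ratio 2.96), with 74.9% of its exon bases under annotated exons of another gene. Nr1h4, the bile acid receptor FXR, had 111 and 57.0 FPKM in nuclear RNA, against 107 and 61.1 FPKM in cytoplasmic RNA, which gives 2.38 on the equalised scale and −0.02 on the deposited scale. Ppargc1b, a coactivator of mitochondrial genes, was at 0 in both cytoplasmic libraries and had 2.35 and 1.91 FPKM in nuclear RNA. Its direction was fixed by the filter. Nr3c2, the mineralocorticoid receptor, was the cytoplasmic call, with 0.195 and 0.292 FPKM in nuclear RNA against 15.1 and 7.31 FPKM in cytoplasmic RNA.

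Hormone and growth factor receptors had shares of calls near those of all genes, with 4 nuclear (12.5%, against 13.8% of all genes) and 3 cytoplasmic (9.38%, against 11.6%) among 32 tested and a median of 0.48 on the equalised scale and −1.59 on the deposited scale. Beside Gcgr, the alpha-1B adrenergic receptor Adra1b had 20.8 and 22.6 FPKM in nuclear RNA, against 21.8 and 21.3 FPKM in cytoplasmic RNA (log2 ratio 2.32). Ghr, the growth hormone receptor, had 11.5 and 9.76 FPKM in nuclear RNA, against 221 and 295 FPKM in cytoplasmic RNA (log2 ratio −2.11). Egfr, the epidermal growth factor receptor, had 16.1 and 15.1 FPKM in nuclear RNA, against 387 and 337 FPKM in cytoplasmic RNA (log2 ratio −2.07). Gcgr had the highest and Ghr the lowest ratio of the group.

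Of 24 immediate early genes, 5 were called nuclear (20.8%, against 13.8% of all genes) and none cytoplasmic (median 0.74, or −0.96 on the deposited scale). Of 18 clock genes, 2 were called nuclear (11.1%) and none cytoplasmic (median 0.40, or −1.55 on the deposited scale). Gadd45g, a stress response gene, had 51.7 and 26.5 FPKM in nuclear RNA, against 22.5 and 16.4 FPKM in cytoplasmic RNA (log2 ratio 3.24). The clock gene Per2 had 3.62 and 3.10 FPKM in nuclear RNA, against 3.63 and 1.77 FPKM in cytoplasmic RNA (log2 ratio 2.07), and Per1 had a log2 ratio of 2.88.

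Plasma proteins made by hepatocytes were mostly cytoplasmic. Of 84 tested, 49 were called cytoplasmic (58.3%, against 11.6% of all genes) and 4 nuclear (4.76%, against 13.8%). Their median log2 ratio was −1.82. Alb had a log2 ratio of −3.30 (limma adjusted p = 0.0126). Serpina1a, the protease inhibitor alpha-1-antitrypsin, had 168 and 177 FPKM in nuclear RNA, against 19955 and 16388 FPKM in cytoplasmic RNA (log2 ratio −4.27). Serpina6, which carries corticosteroids in plasma, had 1.39 and 1.04 FPKM in nuclear RNA, against 143 and 161 FPKM in cytoplasmic RNA (log2 ratio −4.12). Trf, the iron carrier transferrin, had 647 and 541 FPKM in nuclear RNA, against 43701 and 28683 FPKM in cytoplasmic RNA (log2 ratio −3.47).

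A few secreted proteins went the other way on the equalised scale. Igfbp1, a binding protein of insulin-like growth factors that responds to fasting, had 165 and 145 FPKM in nuclear RNA, against 165 and 131 FPKM in cytoplasmic RNA (log2 ratio 2.49). Itih3, a hyaluronan-binding protein, had 1953 and 691 FPKM in nuclear RNA, against 1828 and 815 FPKM in cytoplasmic RNA (log2 ratio 2.36, and −0.07 on the deposited scale). Both were level between fractions in deposited values, where the typical gene was far lower in nuclear RNA. Angptl4, an inhibitor of lipoprotein lipase, passed at 1.49 and lay at −0.87 on the deposited scale.

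Apolipoproteins gave 9 cytoplasmic (39.1%, against 11.6% of all genes) and no nuclear calls among 23 tested, with a median of −0.56. Apoe had 466 and 630 FPKM in nuclear RNA, against 30350 and 27936 FPKM in cytoplasmic RNA (log2 ratio −3.31). Apoh had 88.4 and 88.9 FPKM in nuclear RNA, against 3662 and 2659 FPKM in cytoplasmic RNA (log2 ratio −2.69). Of 14 metallothionein and acute phase genes, 11 were cytoplasmic (78.6%, against 11.6% of all genes) and 1 nuclear (7.14%, against 13.8%), with a median of −2.65. Saa1 and Saa2, serum amyloid A genes that are near-identical copies of each other, were uneven between cytoplasmic libraries. Saa2 had 820 and 391 FPKM in nuclear RNA, against 33184 and 11071 FPKM in cytoplasmic RNA, and Mt1, a metallothionein, had 53.2 and 26.5 FPKM in nuclear RNA, against 3992 and 808 FPKM in cytoplasmic RNA.

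Drug-metabolising P450 genes were divided. Of 59 tested, 19 were called cytoplasmic (32.2%, against 11.6% of all genes) and 9 nuclear (15.3%, against 13.8%), with a median of −0.89 and a range of −3.91 to 4.58. Cyp1a2, which oxidises caffeine and many drugs, had 11.2 and 14.9 FPKM in nuclear RNA, against 815 and 850 FPKM in cytoplasmic RNA (log2 ratio −3.53). Cyp2e1, the ethanol-oxidising enzyme and the most abundant of the list, had 324 and 258 FPKM in nuclear RNA, against 7259 and 5272 FPKM in cytoplasmic RNA (log2 ratio −1.98). Cyp4f15, of a family that hydroxylates fatty acids and leukotrienes, had 123 and 90.0 FPKM in nuclear RNA, against 61.8 and 22.6 FPKM in cytoplasmic RNA (log2 ratio 3.85). Its neighbour in family Cyp4f17 had a log2 ratio of 2.92. Several P450 genes have close paralogs, and Cyp2a4 and Cyp2a5 in particular may share reads.

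Conjugation enzymes, which make compounds soluble after oxidation, were more uniform, with a median of −2.14. Among 45 tested there were 25 cytoplasmic calls (55.6%, against 11.6% of all genes) and 1 nuclear call (2.22%, against 13.8%). Gsta3, a glutathione transferase, had 32.0 and 58.4 FPKM in nuclear RNA, against 3578 and 3361 FPKM in cytoplasmic RNA (log2 ratio −3.87). Inmt, an indole methyltransferase, had 5.31 and 8.74 FPKM in nuclear RNA, against 704 and 587 FPKM in cytoplasmic RNA (log2 ratio −4.03). The nuclear call was Sult5a1, at 1.80 on the equalised scale and −0.48 on the deposited scale.

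Fuel metabolism genes had calls both ways. Among 30 genes of gluconeogenesis and glycogen, 3 were nuclear (10%, against 13.8% of all genes) and 7 cytoplasmic (23.3%, against 11.6%). Their median was −0.31. Gckr, the nuclear inhibitor of glucokinase, had 148 and 117 FPKM in nuclear RNA, against 87.6 and 128 FPKM in cytoplasmic RNA (log2 ratio 2.72). G6pc, the last enzyme of glucose release, had 299.7 and 201 FPKM in nuclear RNA, against 526 and 313 FPKM in cytoplasmic RNA (log2 ratio 1.71, and −0.72 on the deposited scale).

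Of 43 genes of the urea cycle and amino acid breakdown, 4 were nuclear (9.30%, against 13.8% of all genes) and 14 cytoplasmic (32.6%, against 11.6%). Their median was −0.98. Ass1, the urea cycle enzyme argininosuccinate synthase, had 31.3 and 21.7 FPKM in nuclear RNA, against 1752 and 1494 FPKM in cytoplasmic RNA (log2 ratio −3.50). Prodh2, which breaks down hydroxyproline, had 468 and 338 FPKM in nuclear RNA, against 315 and 353 FPKM in cytoplasmic RNA (log2 ratio 2.68).

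Lipid genes had calls both ways as well. Fatty acid oxidation and peroxisome genes gave 3 nuclear (6.12%) and 13 cytoplasmic (26.5%) calls among 49 (median −0.46). Fatty acid and cholesterol synthesis genes gave 2 nuclear (4.76%) and 13 cytoplasmic (31.0%) calls among 42 (median −0.85). Over all genes the shares were 13.8% and 11.6%. Fabp1, the liver fatty acid-binding protein, had 141 and 107 FPKM in nuclear RNA, against 6621 and 4400 FPKM in cytoplasmic RNA (log2 ratio −3.02). Thrsp, a regulator of lipogenesis, had 10.2 and 8.10 FPKM in nuclear RNA, against 553 and 695 FPKM in cytoplasmic RNA (log2 ratio −3.60). Soat2, which esterifies cholesterol, had 28.01 and 19.5 FPKM in nuclear RNA, against 0 and 4.34 FPKM in cytoplasmic RNA (log2 ratio 4.95). Dgat1, an enzyme of triglyceride synthesis, had 30.5 and 17.8 FPKM in nuclear RNA, against 13.9 and 10.1 FPKM in cytoplasmic RNA (log2 ratio 3.18).

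Ribosomal protein mRNAs and nuclear-encoded mRNAs of the respiratory chain had the highest shares of cytoplasmic calls among the groups. Of 73 ribosomal protein genes, 65 were called cytoplasmic (89.0%) and none nuclear, with a median of −2.60. Of 67 respiratory chain genes, 55 were cytoplasmic (82.1%) and none nuclear, with a median of −2.29. The shares of all genes were 11.6% cytoplasmic and 13.8% nuclear. Rplp0, of the ribosomal stalk, had 12.5 and 12.1 FPKM in nuclear RNA, against 1235 and 1063 FPKM in cytoplasmic RNA (log2 ratio −4.06). Rpl5, which binds the 5S RNA, had 4.73 and 4.53 FPKM in nuclear RNA, against 719 and 584 FPKM in cytoplasmic RNA (log2 ratio −4.57). Cox6b1, a subunit of cytochrome oxidase, had 11.9 and 11.8 FPKM in nuclear RNA, against 1102 and 799.6 FPKM in cytoplasmic RNA (log2 ratio −3.82). No respiratory chain gene and 1 ribosomal protein gene had a ratio above the median of all genes.

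Other parts of protein production and turnover were cytoplasmic to a lesser degree. Translation factors gave 16 cytoplasmic (39.0%) and 1 nuclear (2.44%) call among 41 (median −1.07). The proteasome gave 13 cytoplasmic (34.2%) and no nuclear calls among 38 (median −1.13). Endoplasmic reticulum entry and chaperone genes gave 14 cytoplasmic (23.7%) and 2 nuclear (3.39%) calls among 59 (median −1.09). Over all genes 11.6% were cytoplasmic and 13.8% nuclear. Eef1a1, the elongation factor that brings transfer RNA to the ribosome, had 171 and 116 FPKM in nuclear RNA, against 11804 and 7837 FPKM in cytoplasmic RNA (log2 ratio −3.65). Sec61b, a subunit of the translocation channel, had 2.65 and 1.58 FPKM in nuclear RNA, against 139 and 108 FPKM in cytoplasmic RNA (log2 ratio −3.22). Atf4, a transcription factor of the stress response, went the other way at 1.85 on the equalised scale, but lay at −0.55 on the deposited scale.

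**Figure D4:**
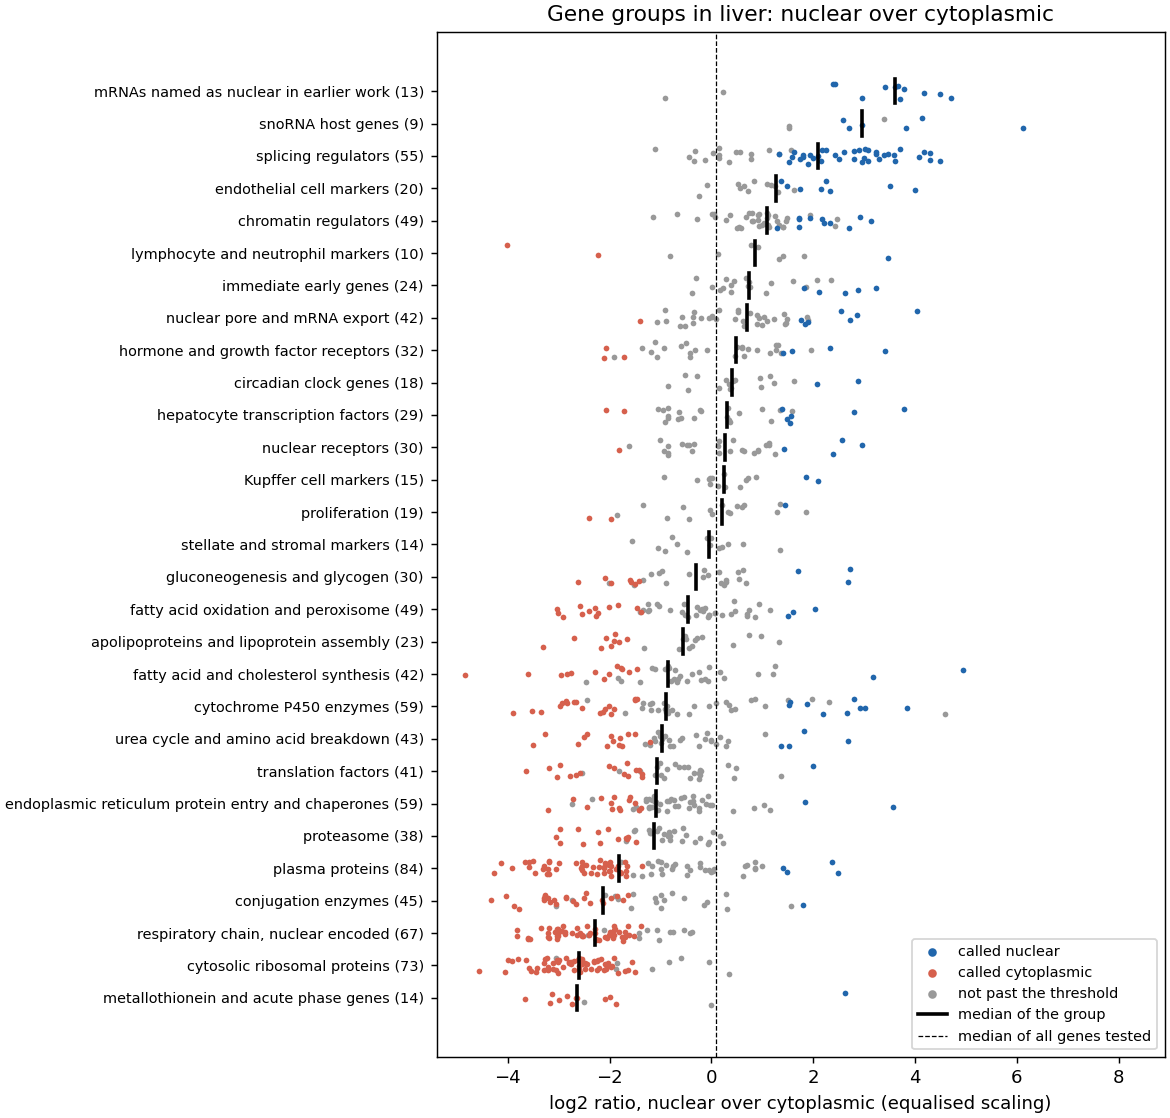
Log2 ratios, nuclear over cytoplasmic on the equalised scale, of each tested gene in the groups with at least 9 tested members, with the number tested in parentheses, thick bars for group medians and a dashed line for the median of all genes, 0.09. Splicing regulators, snoRNA hosts and mRNAs named as nuclear in earlier work lie to the right, and ribosomal, respiratory chain, conjugation and acute phase genes lie to the left.

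Markers of other liver cells also differed between fractions. In bulk RNA, fewer cells of a type and less RNA per cell cannot be told apart, and neither can loss of a cell type from 1 fraction during preparation. Of 7 red cell genes, 4 were called cytoplasmic (57.1%, against 11.6% of all genes) and none nuclear, with a median log2 ratio of −3.21. Their summed level was 68.2 and 29.0 equalised FPKM in nuclear RNA, against 857 and 308 in cytoplasmic RNA. Hbb-bs, an adult beta globin, had 10.8 and 1.55 FPKM in nuclear RNA, against 1102 and 243 FPKM in cytoplasmic RNA (log2 ratio −4.37). In both fractions replicate 1 held more of these transcripts than replicate 2. Equalised levels of Hbb-bs were 21.2 and 4.26 FPKM in nuclear RNA, against 399 and 124 FPKM in cytoplasmic RNA, and those of Mt1 were 105 and 72.9 FPKM in nuclear RNA, against 1444 and 413 FPKM in cytoplasmic RNA. Saa1 and Saa2 were likewise higher in replicate 1 of each fraction, and the part of blood content in other results was not tested.

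Endothelial markers leaned nuclear on the equalised scale, with 8 of 20 called nuclear (40%, against 13.8% of all genes) and none cytoplasmic. Their median was 1.28 on the equalised scale and −0.79 on the deposited scale. Their summed level was 647 and 746 equalised FPKM in nuclear RNA, against 152 and 175 in cytoplasmic RNA. Egfl7, a protein secreted by endothelium, had 81.9 and 53.7 FPKM in nuclear RNA, against 18.1 and 22.4 FPKM in cytoplasmic RNA (log2 ratio 4.0). Stab2, a scavenger receptor of sinusoidal endothelium, had 30.6 and 21.9 FPKM in nuclear RNA, against 11.9 and 8.69 FPKM in cytoplasmic RNA (log2 ratio 3.51). On the deposited scale 1 of the 20 was called nuclear and 3 cytoplasmic. The other 12 did not pass on the equalised scale.

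Kupffer cells, the macrophages of the liver, gave 2 nuclear (13.3%, near the share of all genes) and no cytoplasmic calls among 15 (median 0.26, or −2.12 on the deposited scale), and the summed level was 669 and 1051 equalised FPKM in nuclear RNA, against 496 and 826 in cytoplasmic RNA. Clec4f, a lectin of Kupffer cells, had 84.8 and 46.9 FPKM in nuclear RNA, against 81.7 and 75.2 FPKM in cytoplasmic RNA, a log2 ratio of 2.09 on the equalised scale and −0.31 on the deposited scale. Stellate and stromal markers gave no calls among 14 on the equalised scale (limma, median −0.06), and 10 cytoplasmic calls on the deposited scale. Of 10 lymphocyte and neutrophil markers, 1 was called nuclear, 2 were called cytoplasmic and 7 did not pass, with a median of 0.85 on the equalised scale and −0.54 on the deposited scale. The cytoplasmic calls were the neutrophil genes S100a8 and S100a9, with log2 ratios of −4.02 and −2.22. S100a8 was at 0 in both nuclear libraries, against 71.2 and 17.3 FPKM in cytoplasmic RNA. S100a9 rested on an estimated 3.05 and 1.52 nuclear reads and 10.7 and 6.10 cytoplasmic reads. The nuclear call was the B-cell gene Cd79b, which was at 0 in both cytoplasmic libraries and had 4.64 and 3.98 FPKM in nuclear RNA. The filter fixed the direction of S100a8 and Cd79b. Cholangiocyte markers gave 3 tested genes. Proliferation genes gave 1 nuclear (5.26%) and 2 cytoplasmic (10.5%) calls among 19, against 13.8% and 11.6% of all genes.

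Transcript structure was set beside the calls as a description. Among protein-coding genes, the longest annotated transcript had a median of 3589 bases and 12 exons for the 1350 called nuclear, against 2128 bases and 5 exons for the 1154 called cytoplasmic, and 3302 bases and 8 exons for the rest. Median GC content was 52.5% for nuclear genes, 49.3% for cytoplasmic genes and 49.6% for the rest. Where that longest transcript had over 20 exons, 24.2% of genes were called nuclear and 2.56% cytoplasmic. Where it had 1 exon, 7.72% were nuclear and 19.2% cytoplasmic. The longest annotated transcript need not be the main mRNA of a gene, and it had 1 exon for Gapdh, Saa1, Saa2 and Mt1. The group with 1 exon is therefore not a set of intronless genes. Transcripts of at most 1000 bases were nuclear in 3.55% and cytoplasmic in 39.0% of cases. Across the 9943 protein-coding genes, which are not independent of each other, the Spearman correlation with the equalised log2 ratio was 0.28 for exon number, 0.22 for transcript length and 0.16 for GC content. Depth moved with the calls as well, since genes with over 300 estimated reads were called nuclear in 24.8% and cytoplasmic in 33.9% of cases, and those with 3 to 10 reads in 2.52% and 4.34%. The share of depth, length and exon number in each other's patterns was not tested.

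**Figure D5:**
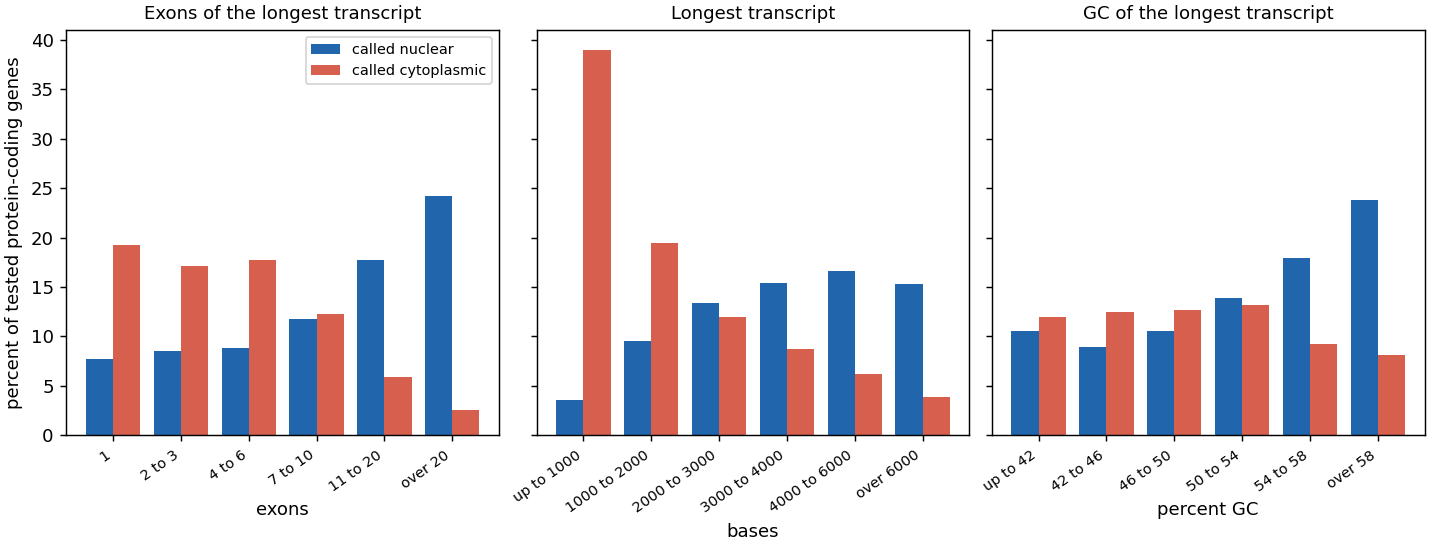
Percent of tested protein-coding genes called nuclear and called cytoplasmic on the equalised scale (vertical axis) by exon number, length in bases and GC content of the longest annotated transcript. Nuclear calls reach 24.2% above 20 exons and 23.8% above 58% GC, and cytoplasmic calls reach 39.0% for transcripts of up to 1000 bases.

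Calls were also counted in classes of RNA other than mRNA. Processed pseudogenes, which are intronless copies of mRNAs, gave 25 cytoplasmic and no nuclear calls among 55 tested, against 11.6% and 13.8% of all genes. Their median log2 ratio was −1.61, and their reads may belong to the parent mRNA. Nuclear calls fell on 15 of 42 snoRNA genes, 7 of 29 microRNA genes and 1 of 9 small nuclear RNA genes, with no cytoplasmic call in these 3 classes. However, 39 of the snoRNA, 23 of the microRNA and all 9 small nuclear RNA genes were at 0 in both cytoplasmic libraries. The filter fixed the direction of those genes, so these counts say nothing of their own.

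The position of genes relative to each other was also compared. A gene on the same strand ended within 5 kb upstream of the start for 22.15% of protein-coding genes called nuclear, against 12.05% of those called cytoplasmic and 14.52% of all protein-coding genes tested. Among the protein-coding genes at 0 in both cytoplasmic libraries it was 25%. An upstream gene averaging at least 100 FPKM in its higher fraction was rarer. It was found for 2.52% of those called nuclear, 1.47% of those called cytoplasmic and 1.42% of all. Among the 15 largest nuclear ratios, Cyp21a1, Cyp2j9, Gramd1a, Tnxb, Fam193b, Rsrp1, Ankrd16 and Adrb3 had no upstream gene in that window. Lgals4, Cabyr, Sap25, Acrbp, Ccnl2, Akap8l and Neat1 had one. Sap25 starts 235 bases after the end of Lrch4, and Acrbp starts 424 bases after the end of Ing4. Ccnl2 starts 2514 bases after the end of Mrpl20, which had means of 4.76 FPKM in nuclear RNA and 106 FPKM in cytoplasmic RNA. Lgals4 starts 1607 bases after the end of Ech1, a peroxisomal enzyme with means of 34.4 FPKM in nuclear RNA and 622 FPKM in cytoplasmic RNA. Cabyr starts 1459 bases after the end of Ttc39c, which had means of 81.1 FPKM in nuclear RNA and 138 FPKM in cytoplasmic RNA. Whether reads past the end of the upstream gene enter these values was not tested, because the files give 1 value per gene.

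The liver ratios were set beside those of the MIN6 line. Over the 5315 genes with a mean of at least 1 in both, the equalised log2 ratios had a Spearman correlation of 0.742 and a Pearson correlation of 0.741, as a description across genes that share annotation, length and exon number. Rsrp1 had a log2 ratio of 5.18 in liver and 4.47 in MIN6, Neat1 of 5.64 and 3.81, Ccnl2 of 5.10 and 4.03, and Mlxipl of 3.78 and 5.42. Gapdh had −4.35 in liver and −3.20 in MIN6, and Prdx1 −4.26 and −3.22.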

How the data were processed

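PolyA RNA of liver nuclei and liver cytoplasm was sequenced in 2 libraries each. The deposited table gives 1 FPKM value per gene and library, made by the authors with TopHat and Cuffdiff on mm10, per the submitters' processing notes. The file header names no unit, and FPKM was taken from Cuffdiff and from the low values, which step in units that shrink with transcript length. The sources used here give no tool versions, no annotation, no use of strand and no scaling between libraries.

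Genes averaging 1 FPKM or more over the 4 liver libraries were kept. Libraries were equalised by the median ratio to the geometric mean over genes above 0 in all 4. Fractions were compared with limma 3.58.1 in R 4.3.3 on log2(FPKM + 1), in equalised and in deposited values, with Benjamini-Hochberg adjustment over all 10353 genes. The log2(FPKM + 1) scale understates the change of low genes. The value of 1 read was estimated from single-transcript genes of over 1500 bases, with a tolerance of 0.004 on the log2 scale, and estimated reads use the longest GENCODE M21 transcript. Tables were handled in Python 3.11.15 with pandas 2.3.3.

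The genes named are among called genes without overlap, the 15 with the largest ratio in each direction, given 10 FPKM or more in the higher fraction and a transcript of at least 300 bases, leaving out Rik, Gm and similar unnamed symbols, the 8 highest genes at 0 in both cytoplasmic libraries, the 5 highest genes of each fraction and of the small RNAs, up to 3 called members each way and the highest member of each gene list, and a few fixed genes. From these, examples are printed, and 3 genes that the rule names are not reported here. The members, gene lists and tests were chosen with earlier results of these data known. Alternatives were the pseudocount, filters on low values, the scaling, limma's intensity trend, the replicate number as a block, and each library left out.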

Additional observations from a re-analysis of the deposited data

Results flagged for a closer look

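For 5 of the named genes the equalised levels of the fractions did not overlap in liver or in MIN6 and lay in opposite directions, and the difference itself was not tested. Log2 ratios are nuclear over cytoplasmic, and levels are FPKM, both on the equalised scale. In deposited FPKM the MIN6 fractions of Apoe and Cyp2e1 overlap, and Atf4 had a log2 ratio of −0.55 in liver, the same direction as in MIN6.

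Apoe had a log2 ratio of −3.31 in liver and 1.52 in MIN6, a difference of −4.83, and in MIN6 it had 6.79 and 2.39 FPKM in nuclear RNA, against 1.38 and 0.347 FPKM in cytoplasmic RNA. Cyp2e1 had −1.98 in liver and 1.72 in MIN6, a difference of −3.70, and in MIN6 it had 8.80 and 3.27 FPKM in nuclear RNA, against 0.597 and 1.42 FPKM in cytoplasmic RNA. Both were low in MIN6.

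Nme2 had −5.76 in liver and 1.92 in MIN6, a difference of −7.68, with 22.2 and 14.6 FPKM in the MIN6 nuclear libraries, against 2.96 and 5.37 FPKM in the MIN6 cytoplasmic libraries. Atf4 had 1.85 in liver and −1.05 in MIN6, a difference of 2.90, with 4.86 and 11.03 FPKM in the MIN6 nuclear libraries, against 16.6 and 16.3 FPKM in the MIN6 cytoplasmic libraries. Ramp2 had 4.83 in liver and −1.12 in MIN6, a difference of 5.95, with 0.332 and 1.06 FPKM in the MIN6 nuclear libraries, against 2.06 and 3.26 FPKM in the MIN6 cytoplasmic libraries.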

How the results depend on the processing

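On the equalised scale, nuclear calls numbered 1429, and 717 with a pseudocount of 0.1 and 766 with a mean of at least 10 FPKM. Cytoplasmic calls numbered 1200, and 619 with a pseudocount of 0.1 and 534 with every library rescaled to a sum of 1000000, where the typical gene lay at a log2 ratio of 0.54. With 1 library left out, both counts were 0 in each case. On the deposited scale, nuclear calls numbered 303, and 106 with a mean of at least 10 FPKM. They ranged from 0 to 370, and cytoplasmic calls from 0 to 5535, with 1 library left out, and both were 0 without either nuclear library. A lone library is assumed there to vary like the other fraction, and fewer samples were fitted. The cause of the other changes was not tested. With the replicate number as a block, calls were 1050 nuclear and 819 cytoplasmic on the equalised scale, and 319 and 5338 on the deposited scale, and 18 named genes lost their call. The labels do not say that the numbers pair the fractions. The replicate differences of the fractions had a correlation of 0.05 over all tested genes and of 0.18 over the 2584 genes with 30 estimated reads in each library, and 2 pairs cannot settle it.

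On the deposited scale 23 named genes with a call on at least 1 scale had the opposite sign of log2 ratio to the equalised scale: Sult5a1 −0.48, Angptl4 −0.87, Mcm5 −0.22, Itih3 −0.071, Acaa1b −0.40, Clec4f −0.31, Acot12 −0.60, Brd2 −1.10, Slc27a2 −0.94, Pck1 −1.89, Npr2 −0.78, Eif4g3 −0.23, Mcm7 −1.62, Bckdhb −0.59, Uroc1 −0.90, Atf5 −2.07, Stab1 −0.049, Atf4 −0.55, Nr1h4 −0.025, Timd4 −0.26, Cebpb −0.78, Clec4g −0.14 and G6pc −0.72. Gas5, called on neither scale and not counted there, changed sign as well, from 1.53 to −0.88. The choice of scale sets the sign of all these genes by construction. A further 31 named genes lost their call on that scale, 56 lost it with a pseudocount of 0.1, 33 with equal sums, and 14 without a filter. Depth limits low genes most, since 1 read on 1 kb is worth 2.46 and 1.80 FPKM in the cytoplasmic libraries.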
